A study of Mus musculus with 12 samples.

Results

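Verteporfin (VP) and Y27632 (Y27) were compared directly with each other in 3T9MycER cells, an immortalised line of mouse embryo fibroblasts, in the absence of 4-hydroxytamoxifen (OHT). VP blocks the action of YAP through its DNA-binding partner TEAD, and Y27 inhibits the ROCK kinases. All groups carried the MycER transgene, a Myc fusion protein that OHT switches on and that was not switched on in these groups. VP was given at 20 µM and Y27 at 50 µM, each for 8 hours, so the doses were not matched. The compared groups were VP without OHT and Y27 without OHT, with 2 libraries each, and DMSO, the solvent, without OHT (2 libraries) served as the reference level. The series holds 12 libraries in 6 groups, the other 3 groups being the same treatments with OHT. The RNA was total RNA, made into libraries without selection of poly(A) RNA. The sources describe the culture state in different ways, confluent in one and subconfluent after serum starvation in another, and it was not settled here. No source says whether the libraries of a group came from separate cultures, so the tests below measure the spread between these libraries, which may be technical.

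The comparison covered every gene with a mean of at least 0.5 RPKM (reads per kilobase of gene, scaled to the library total) over the 4 VP and Y27 libraries. This kept 10898 genes of the 21501 with a usable value and of the 21671 in the table. The genes nearest the minimum were Ribc1, kept at a mean of 0.5005 RPKM, and Cd59a, left out at 0.4999 RPKM. The library totals were 30856488 and 26124435 reads for VP, 21857777 and 24340549 for Y27, and 26771313 and 28288317 for DMSO. The log2 values of the replicates correlated across genes at 0.992 to 0.995. Of 12 defining markers of fibroblasts 10 were at 0.5 RPKM or more, with Vim (vimentin) at 46.9 and 54.2 RPKM in VP and 65.4 and 60.8 RPKM in Y27, while Thy1 and Fap stayed under that level. The summed level of the fibroblast markers was 150 and 155 RPKM in VP against 316 and 308 RPKM in Y27 and 276 and 268 RPKM in DMSO. Of the marker lists of other cell types, the epithelial, endothelial and adipocyte ones had no gene at 0.5 RPKM, the macrophage list had Cd14 and Cd68 and the neural list had Tubb3.

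YAP is a coactivator that enters the nucleus when cells spread and pull on their substrate, and there it works through TEAD factors on genes such as Ctgf and Cyr61. ROCK phosphorylates myosin light chain and LIM kinases, so it sets actomyosin contraction and actin polymer. Actin polymer in turn governs another transcription route, in which free actin holds the MRTF coactivators away from SRF. An inhibitor of ROCK can therefore touch both YAP-TEAD and SRF-MRTF genes, while VP is a porphyrin derivative that is also used as a photosensitizer.

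Most of the transcriptome differed between the inhibitors. In a limma fit on log2(RPKM + 1) over the 6 libraries without OHT, 7669 of the 10898 genes (70.4%) passed an adjusted p of 0.05. Of these, 3706 (34.0% of those tested) were higher in VP and 3963 (36.4%) were lower in VP. The differences were mostly moderate, with a median size of 0.38 and a 90th percentile of 1.16 on the log2 scale. A difference of at least 1 was called in 732 genes that were higher in VP and 788 that were lower, and one of at least 2 in 137 and 78 genes. The median difference over all genes was -0.02. With that many calls, the counts of each group of genes are read against these shares. Fewer cells of a type and less RNA per cell cannot be told apart in these bulk libraries, whose values are relative to the library total. For 5523 genes (50.7%) the 95% interval of the difference lay within 1.5-fold in either direction, a group that overlaps with the called genes and is favoured at low levels by the added 1. The filter itself forced a difference in some genes, since 336 reached 0.5 RPKM in VP but not in Y27 and 278 in Y27 but not in VP. Among genes described below, Ifit1, Gbp2, Mx2, Cxcl10, Isg15, Ifi47, Igtp and Lif reached it in VP alone. So did Cth, Slc40a1, Dusp4, Ankrd1, Lmod1 and Col27a1, while Gprc5c reached it in Y27 alone.

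**Figure D1:**
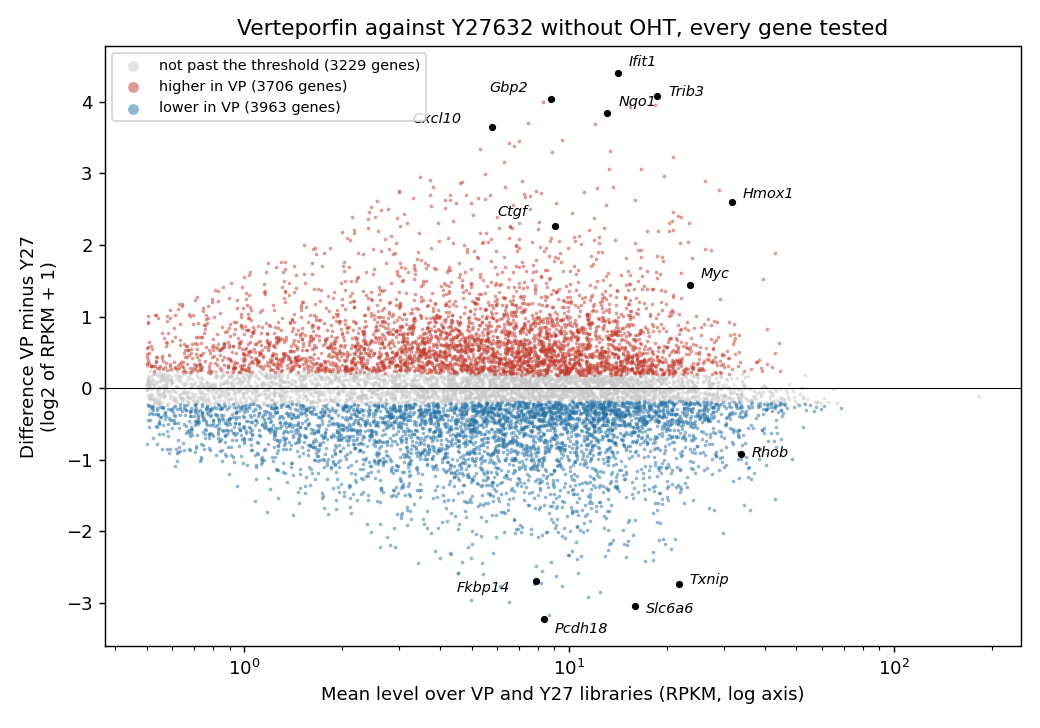
Difference between VP and Y27 (vertical axis, log2 of RPKM + 1) against the mean level over the 4 libraries (horizontal axis, RPKM, log axis) for each of the 10898 genes tested. Red points (3706) were higher in VP, blue points (3963) lower in VP, grey points not past the threshold, and the black points are named genes such as Ifit1 at 4.40 and Pcdh18 at -3.22.

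The genes furthest above Y27 in VP were led by the interferon response. Ifit1, which binds viral RNA that lacks a normal cap, stood at 25.3 and 30.5 RPKM in the VP libraries and at 0.243 and 0.498 RPKM in the Y27 libraries, with 1.15 and 1.35 RPKM in DMSO. Its VP-minus-Y27 difference was 4.40 ± 0.11 (SE, n = 2 libraries a group; limma adjusted p = 2.20e-14). Ifit1 passed the minimum through VP alone and had to differ, so this p is not independent of the filter. Gbp2, a guanylate-binding protein that coats intracellular pathogens, had 16.4 and 18.5 RPKM in VP and 0.0559 and 0.184 RPKM in Y27 (difference 4.04 ± 0.10). Mx2, an antiviral GTPase, had 15.3 and 17.9 RPKM in VP and 0.113 and 0.0848 RPKM in Y27 (difference 3.99 ± 0.10). In Y27 these levels rested on 3 and 11 reads for Gbp2 and on 6 and 5 reads for Mx2, so the ratio to VP is imprecise. Cxcl10, a chemokine, had 11.5 and 11.6 RPKM in VP and no read in either Y27 library. Set against a floor of 3 reads over the Y27 group, Cxcl10 was at least 263-fold higher in VP. Gbp2, Mx2 and Cxcl10 also passed the minimum through VP alone, so the filter forced a difference in them.

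The remaining interferon genes moved the same way. Isg15, a ubiquitin-like protein, was at 11.3 and 15 RPKM in VP and 0.363 and 0.326 RPKM in Y27, and the immunity-related GTPases Ifi47 (12.7 and 14.5 RPKM against 0.405 and 0.267 RPKM) and Igtp (11.2 and 14.3 RPKM against 0.271 and 0.264 RPKM) showed the same separation. Of 35 listed interferon response genes 26 reached the minimum and each of the 26 was higher in VP. However, 15 of these, Ifit1, Mx2, Cxcl10 and Isg15 among them, reached 0.5 RPKM in VP alone and had to differ. That leaves 11 that reached it in both groups. Of 15 interferon-inducible GTPases in the table, 11 passed, each higher in VP, and 10 of them, with Gbp2, Ifi47 and Igtp, passed through VP alone. Against DMSO, the 26 genes had a median difference of 1.62 in VP and of -0.23 in Y27. VP lay above DMSO in each of the 26, and Y27 lay below DMSO in 11 and above it in 2. Reads of these families (Gbp, Ifit, Mx) may be shared between close copies. Ifit1 fell by 0.72 in Y27 relative to DMSO (adjusted p = 6.55e-05), whereas Gbp2 and Mx2 in Y27 did not pass the threshold against DMSO (-0.14, adjusted p = 0.266, and -0.12, adjusted p = 0.330).

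The promoters of these genes are shown because members of the list moved together and the factors that read them have a known consensus, the interferon-stimulated response element (ISRE), spelled GAAANNGAAA here and searched on both strands. In RefSeq promoters (GRCm38.p6, 250 bases before to 50 after each start), it was found for 8 of the 17 tested interferon response genes with a promoter in the table and for 8 of 9 GTPases, against 3.55% of 8561 tested genes and 3.44% of all 32851 windows. The stretches below lie before the start, read 5′ to 3′ on the gene's strand, with each match in capitals, which for Ifit1 and Gbp2 is on the opposite strand. Ifit1 has a pair of matches at chr19:34640760-34640819 (+), Gbp2 one at chr3:142620579-142620638 (+), Cxcl10 one at chr5:92349068-92349127 (-) and Isg15 an overlapping run of 3 at chr4:156200862-156200921 (-).
Ifit1: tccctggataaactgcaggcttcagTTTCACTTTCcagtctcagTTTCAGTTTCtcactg
Gbp2: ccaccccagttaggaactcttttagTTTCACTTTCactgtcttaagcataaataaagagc
Cxcl10: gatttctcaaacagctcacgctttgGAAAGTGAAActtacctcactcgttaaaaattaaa
Isg15: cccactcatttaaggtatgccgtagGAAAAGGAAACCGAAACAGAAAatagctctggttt
A match describes the letters in this window and was not tested as a binding site. The lists searched, here and below, hold genes taken as targets or members of the same routes. A share above that of all genes can come from that choice and does not bear on VP against Y27.

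Inflammatory genes under NF-kB were higher in VP in 27 of 28 tested, with 4 of the 28 at the minimum in VP alone. These 4 had to differ, and Lif is among them, so its p below is not independent of the filter. Lif, a cytokine of the interleukin-6 family, had 15.3 and 14.1 RPKM in VP, 0.215 and 0.183 RPKM in Y27 and 0.897 and 0.508 RPKM in DMSO (difference from Y27 3.71 ± 0.11, adjusted p = 1.07e-13). Tnfaip2 had 29.8 and 31.1 RPKM in VP against 2.78 and 2.79 RPKM in Y27. The chemokine Ccl7 had 33.6 and 37.4 RPKM against 3.55 and 3.80 RPKM. Each of these was also lower in Y27 than in DMSO, and Tnfaip2 differed from DMSO by 1.64 in VP and by -1.41 in Y27. Cxcl12, a constitutive stromal chemokine, was the one listed gene lower in VP (2.22 and 2.10 RPKM against 4.38 and 5.38 RPKM, difference -0.89 ± 0.10). Cd14, a coreceptor for lipopolysaccharide and a macrophage marker, was at 6.75 and 6.32 RPKM in VP and 0.733 and 1.15 RPKM in Y27. The other macrophage markers were Cd68 at 2.44 and 2.58 RPKM in VP against 1.68 and 1.39 RPKM in Y27, and 9 genes at 0.255 RPKM or less in the VP and Y27 libraries, with the defining markers Ptprc and Emr1 at 0 in both VP libraries. The summed macrophage list was 9.58 and 9.36 RPKM in VP and 2.83 and 2.87 RPKM in Y27, most of the VP sum from Cd14, and the part of such cells in the interferon and inflammatory results was not tested.

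Genes of the amino acid and integrated stress response, which ATF4 and CHOP drive when translation initiation is checked, were higher in VP in 27 of 31 and lower in 2. Trib3, a pseudokinase that CHOP induces, stood at 34.6 and 37.6 RPKM in VP, 1.12 and 1.26 RPKM in Y27 and 3.75 and 2.79 RPKM in DMSO (difference from Y27 4.08 ± 0.10, adjusted p = 2.20e-14). Chac1, which degrades glutathione, had 37.0 and 40.2 RPKM in VP and 3.27 and 3.17 RPKM in Y27, and DMSO lay between them at 12.5 and 9.96 RPKM. Cth, the enzyme that makes cysteine from cystathionine, had 8.37 and 9.31 RPKM in VP and 0.356 and 0.342 RPKM in Y27. DMSO lay between the inhibitors for each of these genes, and the list as a whole had a median of 1.17 in VP and -0.35 in Y27 against DMSO, with 18 of the 31 below DMSO in Y27. The exceptions were Ddit4 (REDD1, an inhibitor of mTORC1), at 17.6 and 16.2 RPKM in VP and 22.0 and 23.3 RPKM in Y27, and Slc7a3, a low-level amino acid transporter whose call (-0.44) was lost without Y27 replicate 1 (-0.18). The aminoacyl-tRNA synthetases, which load tRNAs and are ATF4 targets in part, were higher in VP in 19 of 20, with a median difference of 1.05. Farsb was highest by difference (13.2 and 13.3 RPKM against 3.11 and 4.03 RPKM), and Qars was the exception at -0.37 ± 0.08.

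The ATF4 composite site (CARE), searched as TGATGNAA, was found in the promoters of 8 of 27 stress targets and 5 of 13 synthetases with a promoter in the table, against 2.56% of the tested genes. Chac1 and Asns (asparagine synthetase, 2.30 higher in VP on the log2 scale) are shown because they hold it before the start, Chac1 at chr2:119351024-119351081 (+) and on the opposite strand, Asns at chr6:7693210-7693257 (-).
Chac1: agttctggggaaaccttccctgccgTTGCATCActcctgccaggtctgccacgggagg
Asns: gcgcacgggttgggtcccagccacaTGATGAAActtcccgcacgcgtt

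The oxidative stress genes under NRF2 showed 19 of 28 higher in VP and none lower, with 9 not past the threshold. The share called, 67.9%, was near the 70.4% of all genes, with each call higher in VP. Nqo1, a quinone reductase, had 24.6 and 26.2 RPKM in VP, 0.855 and 0.821 RPKM in Y27 and 2.74 and 2.51 RPKM in DMSO (difference from Y27 3.84 ± 0.09, adjusted p = 2.20e-14). Srxn1, which repairs oxidized peroxiredoxins, was at 45.1 and 48.8 RPKM against 5.30 and 5.58 RPKM. The glutathione transferase Gsta4 was at 23.2 and 26.0 RPKM against 2.20 and 3.17 RPKM. Nqo1 and Srxn1 moved in opposite directions from DMSO under the inhibitors, up in VP and down in Y27 (2.86 and -0.98 for Nqo1, 1.99 and -0.91 for Srxn1), and 17 of the 28 NRF2 targets were below DMSO in Y27. Heme oxygenase, Hmox1, which opens the porphyrin ring of heme, had 51.3 and 58.9 RPKM in VP, 9.32 and 7.22 RPKM in Y27 and 23.6 and 13.9 RPKM in DMSO (difference from Y27 2.60 ± 0.16, adjusted p = 4.17e-10). Of 23 iron and heme genes 12 were higher in VP and 5 lower (73.9% called, near the 70.4% of all genes). The iron exporter Slc40a1 was at 2.56 and 2.39 RPKM in VP and 0.231 and 0.283 RPKM in Y27. Urod, an enzyme of the later steps of heme synthesis, went the other way (5.46 and 5.65 RPKM against 8.59 and 8.94 RPKM), and Alad, from an early step, was at 5.75 and 4.98 RPKM in VP, close to the 5.46 and 4.67 RPKM of DMSO, and fell to 1.55 and 1.71 RPKM in Y27.

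The aryl hydrocarbon receptor battery was small, with 7 of 11 genes tested, 4 higher in VP and 2 lower. Cyp1a1, Cyp1a2, Ahrr and Ugt1a6a lay below the minimum, and Cyp1b1 did not pass the threshold. Of the 4 higher in VP, Nqo1 and Aldh3a1 are also among the NRF2 targets. Aldh3a1, an aldehyde dehydrogenase, had 22.6 and 23.7 RPKM in VP against 0.795 and 0.952 RPKM in Y27, and Tiparp had 34.9 and 35.3 RPKM against 6.60 and 6.98 RPKM. The receptor Ahr itself was lower in VP, at 9.96 and 8.97 RPKM against 12.9 and 14.3 RPKM. The 4 genes higher in VP, with Nfe2l2 as the fourth, were each above 20 RPKM in VP. Without the genes at 20 RPKM or more the list's median turned from 1.56 to -0.35. That setting removed all 4, so it fixed the sign of the remainder and does not test the list's direction. The antioxidant response element, searched as TGACNNNGC, was found for 8 of 22 NRF2 targets with a promoter, against 16.9% of the tested genes. Txnrd1 (thioredoxin reductase, 2.03 higher in VP) at chr10:82859089-82859147 (+) and Gclm (a subunit of the enzyme that starts glutathione synthesis, 1.91 higher) at chr3:122245398-122245456 (+) are shown as holders, each with the match on the opposite strand.
Txnrd1: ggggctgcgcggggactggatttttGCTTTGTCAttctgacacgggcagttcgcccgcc
Gclm: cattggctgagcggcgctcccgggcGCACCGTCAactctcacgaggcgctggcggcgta

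Immediate early genes, which respond to signals without new protein synthesis, were higher in VP in 15 of 22 and lower in 3. Arc, best known from neurons and an SRF target, was not on this list and is not among the 22. Its level was 35.2 and 35.5 RPKM in VP, 1.14 and 1.55 RPKM in Y27 and 5.41 and 3.49 RPKM in DMSO (difference from Y27 3.96 ± 0.13). Egr1 was at 24.4 and 24.7 RPKM in VP and 1.86 and 2.27 RPKM in Y27. Fos, a subunit of AP-1, was at 11 and 9.40 RPKM against 0.831 and 0.766 RPKM. Arc, Egr1 and Fos were below DMSO in Y27 (-1.20, -0.55 and -0.64), whereas the list as a whole was above DMSO in Y27 in 13 of 22 and below in 4, with a median of 0.42 there and 1.5 in VP. The direction was not shared by Klf2, a factor that flow induces in endothelium, which had 8.59 and 9.86 RPKM in Y27 and 1.23 and 1.67 RPKM in VP (difference -2.07 ± 0.11), nor by the phosphatase Dusp1 at 52.1 and 50.8 RPKM in Y27 and 21.6 and 20.0 RPKM in VP. Among the feedback genes of the ERK pathway, Dusp5 (13.3 and 10.4 RPKM in VP, 0.753 and 0.889 RPKM in Y27), Dusp4 and Dusp6 were higher in VP, and Spry1 and Dusp7 were lower. Ereg, an EGF-family ligand, was at 29.3 and 30.2 RPKM in VP and 1.06 and 0.973 RPKM in Y27, while the receptor Egfr was at 4.71 and 3.65 RPKM in VP and 21.7 and 22.9 RPKM in Y27. Myc was at 33.7 and 35.9 RPKM in VP, 11.8 and 12.7 RPKM in Y27 and 10.6 and 10.2 RPKM in DMSO (difference from Y27 1.44 ± 0.08). Reads of the endogenous gene and of the MycER transgene cannot be told apart, so this level is not assigned to either.

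**Figure D2:**
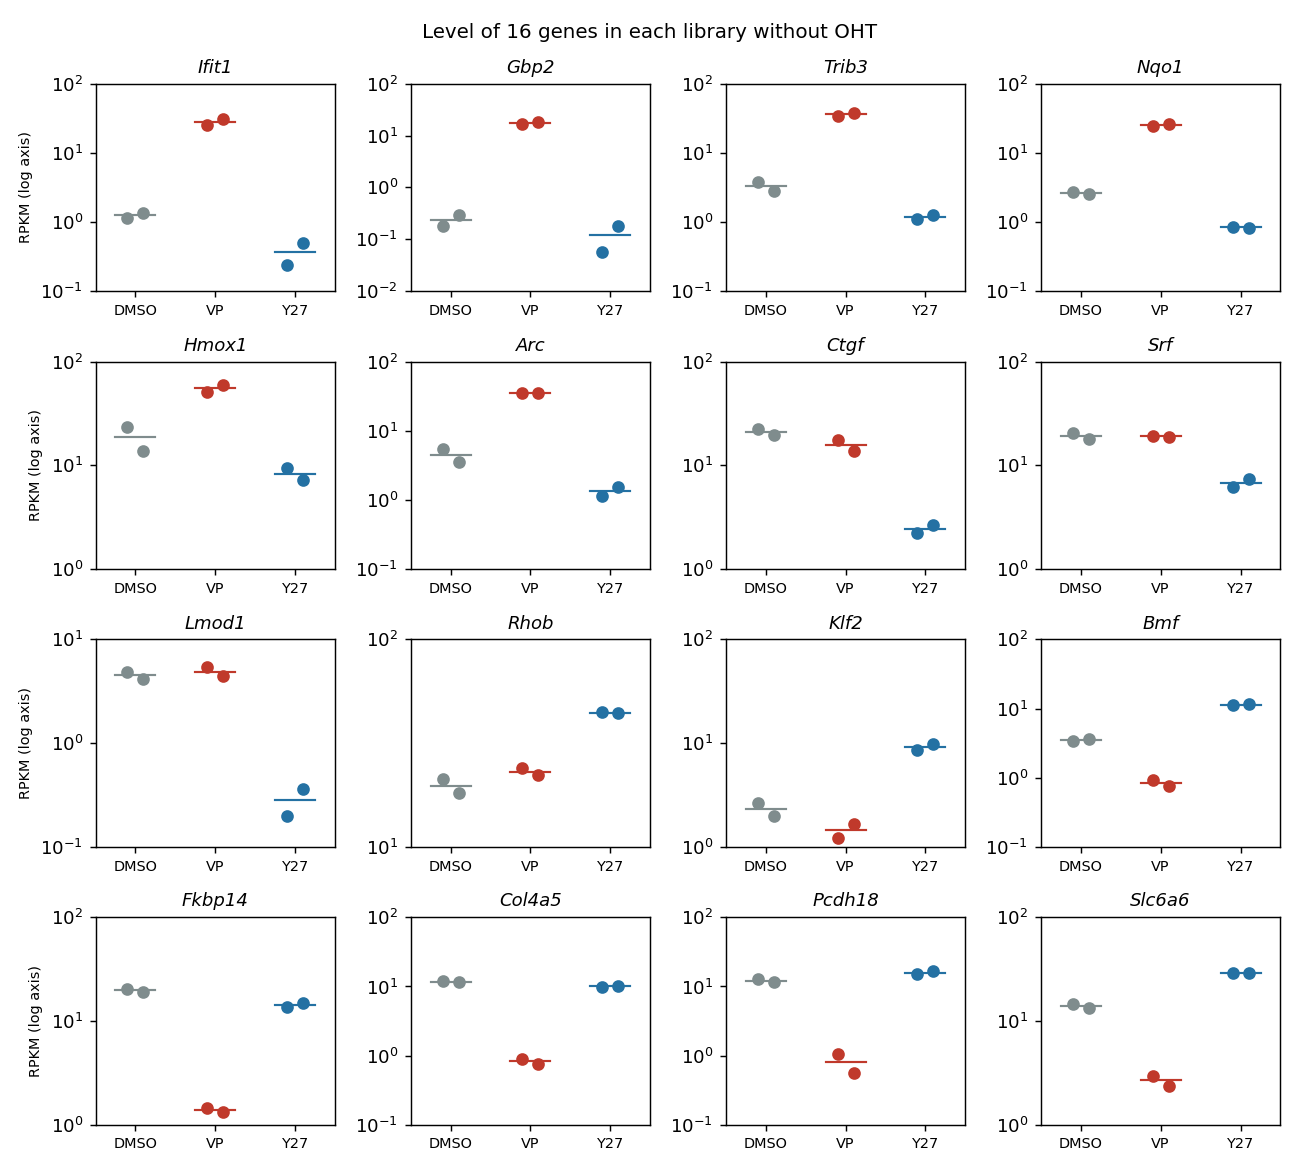
Level of 16 genes in each library without OHT (vertical axis, RPKM, log axis), with points for the 2 libraries of DMSO (grey), VP (red) and Y27 (blue) and a line at each group's mean. DMSO lay beside VP for Srf and Lmod1, beside Y27 for Col4a5, and between the inhibitors for Trib3, Nqo1 and Bmf.

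The YAP-TEAD targets did not separate the inhibitors in a single direction. Of 30 YAP-TEAD targets tested, 8 were higher in VP, 12 lower and 10 not past the threshold, with a median difference of -0.10 against -0.02 for all genes, and the share called (66.7%) was near the 70.4% of all genes. Ctgf, a matricellular protein and the usual readout of YAP, was at 17.4 and 13.8 RPKM in VP and at 2.23 and 2.69 RPKM in Y27, with 22.6 and 19.4 RPKM in DMSO (VP minus Y27 2.26 ± 0.11, adjusted p = 1.34e-11). Its level thus fell by 2.67 in Y27 and by 0.41 in VP relative to DMSO. Cyr61, its close relative, was at 44.0 and 47.3 RPKM in VP and 35.2 and 36.4 RPKM in Y27, a difference of 0.34 ± 0.08 (adjusted p = 1.62e-03). Ankrd1 was at 2.02 and 1.73 RPKM in VP and 0.181 and 0.116 RPKM in Y27, on 7 and 5 reads in the latter. At the other end, Ccdc80, a matrix protein, was at 7.08 and 5.91 RPKM in VP and 32.9 RPKM in each Y27 library, and thrombospondin 1, Thbs1, at 23.6 and 19.3 RPKM against 67.5 and 61.8 RPKM. Against DMSO, VP was below in 19 of the 30 targets and above in 5, and Y27 below in 17 and above in 6. The TEAD core CATTCC was found in the promoters of 9 of 20 targets, against 14.1% of the tested genes, among them Ankrd1 at chr19:36120024-36120079 (-), shown as the holder with the largest difference, with 1 of its 2 matches, on the opposite strand.
Ankrd1: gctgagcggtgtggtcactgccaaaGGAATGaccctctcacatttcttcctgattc

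The factors and regulators of the route ranged from -1.38 for Amot to 0.94 for Tead4. Yap1 was at 7.6 and 7.96 RPKM in VP and 9.16 and 9.80 RPKM in Y27 (difference -0.26 ± 0.08, adjusted p = 9.94e-03), a call that was lost without VP replicate 1 (-0.23) and without Y27 replicate 2 (-0.21). Wwtr1, which encodes TAZ, did not pass (-0.15 ± 0.08, adjusted p = 0.109, 95% interval -0.32 to 0.02), nor did Tead1 (0.21 ± 0.10, adjusted p = 0.0631), although Tead1 passed under 4 of 16 other settings. Tead4 was higher in VP (2.76 and 3.05 RPKM against 0.897 and 1.19 RPKM), whereas Tead2 (5.02 and 5.15 RPKM against 10.6 and 11.6 RPKM), the TEAD competitor Vgll4 (1.35 and 1.31 RPKM against 4.48 and 4.87 RPKM) and the scaffold Amot (6.29 and 6.54 RPKM against 17.6 and 19.1 RPKM) were lower. Of the 18 components 7 were higher in VP and 8 lower.

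Of 34 SRF-MRTF and actin genes 11 were higher in VP, 8 lower and 15 not past the threshold, a share called of 55.9% beside the 70.4% of all genes. Lmod1, Fhl2 and Srf were among the largest differences, and Y27 lay below DMSO for each (-2.10, -1.07 and -1.37). The list as a whole had a median of -0.16 against DMSO in each inhibitor, with VP below DMSO in 15 genes and above in 5, and Y27 below in 14 and above in 2. Srf was at 19.2 and 18.8 RPKM in VP, 6.20 and 7.45 RPKM in Y27 and 20.6 and 17.8 RPKM in DMSO (VP minus Y27 1.36 ± 0.09, adjusted p = 1.16e-09). Lmod1, an actin filament nucleator of smooth muscle, was at 5.38 and 4.40 RPKM in VP, 0.197 and 0.365 RPKM in Y27 and 4.80 and 4.19 RPKM in DMSO. For both genes VP and DMSO libraries overlapped in range and Y27 stood apart. Myl9, the light chain that ROCK signalling phosphorylates, was at 39.3 and 41.3 RPKM in VP and 23.4 and 25.4 RPKM in Y27. Smooth muscle actin, Acta2, was at 21.5 and 24.2 RPKM in VP and 14.7 and 15.2 RPKM in Y27, with 30.8 and 28.1 RPKM in DMSO. Tagln, another smooth muscle marker, was higher in VP by 0.32 ± 0.09, a call that was lost without Y27 replicate 2 (0.27), and Cnn1 lay below the minimum. Filip1l rose in both, further in VP (24.2 and 25 RPKM) than in Y27 (8.24 and 9.41 RPKM), from 6.82 and 5.80 RPKM. The coactivator Mkl1 (MRTF-A) was lower in VP, at 5 and 4.61 RPKM against 7.93 and 10.0 RPKM. The CArG box, the SRF site, was found in the promoters of 8 of 31 genes of the list, against 1.68% of the tested genes. Filip1l at chr16:57549155-57549214 (+) and Fhl2 (1.38 higher in VP) at chr1:43196823-43196882 (-) are shown as the holders with the largest differences.
Filip1l: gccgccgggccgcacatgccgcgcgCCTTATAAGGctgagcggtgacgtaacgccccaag
Fhl2: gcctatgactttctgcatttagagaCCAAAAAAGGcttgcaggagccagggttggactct

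**Figure D3:**
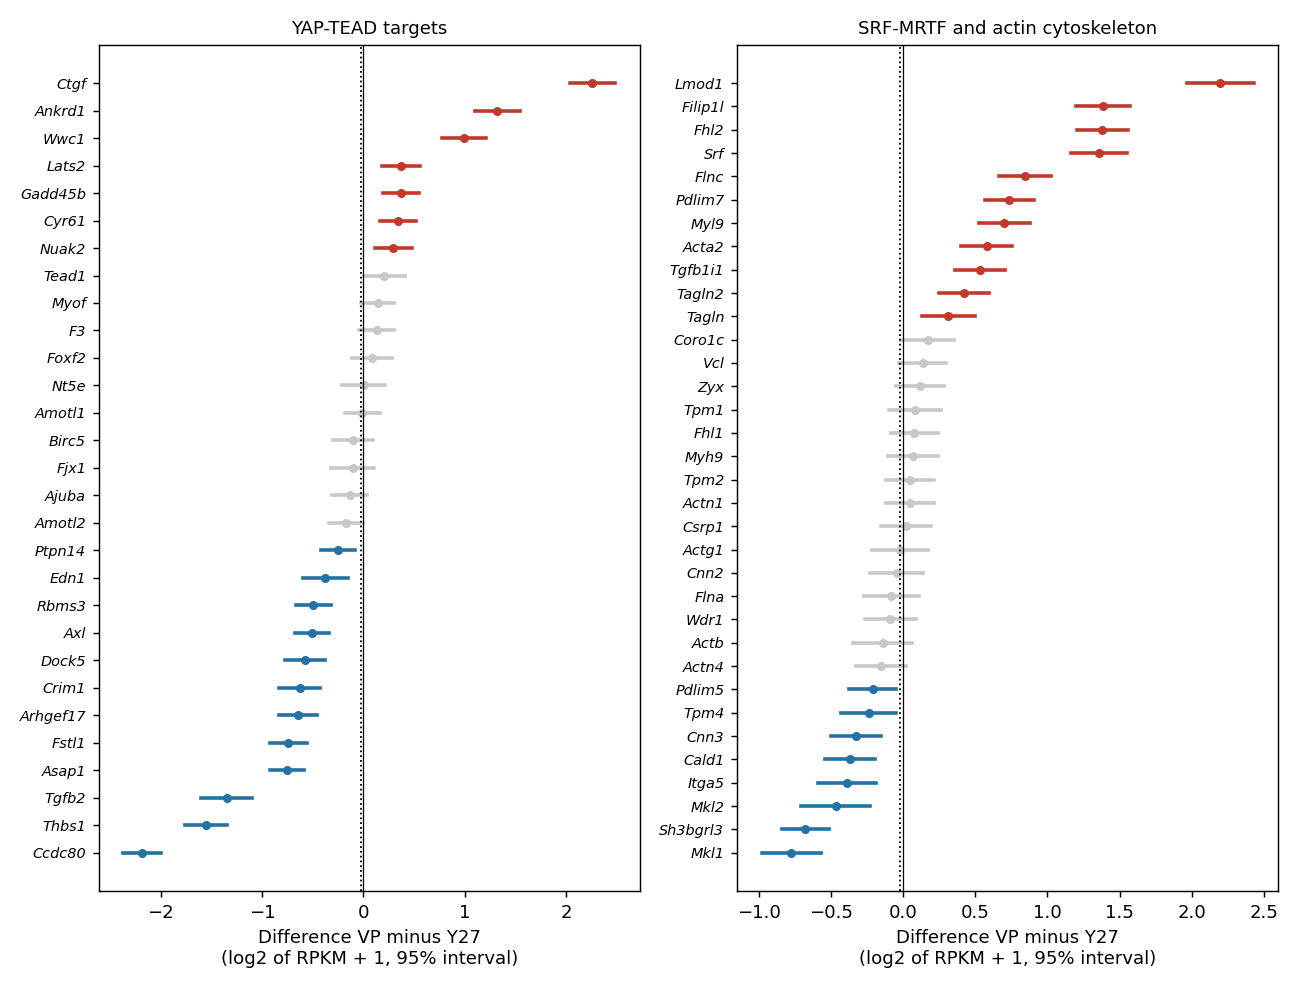
VP-minus-Y27 difference of tested YAP-TEAD targets (left, 1 of the 30 not drawn) and of SRF-MRTF or actin genes (right, 34 genes), each as a point with its 95% interval on the log2(RPKM + 1) scale. Red was higher in VP, blue lower and grey not past the threshold, and the dotted line is the median of all genes at -0.02. The lists span from Ccdc80 to Ctgf and from Mkl1 to Lmod1.

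Of 27 components of the ROCK pathway 13 were lower in VP and 7 higher. The share called, 74.1%, was near the 70.4% of all genes, and the median difference was -0.20. Rhob, a small GTPase upstream of ROCK, was at 44.6 and 44.1 RPKM in Y27, 23.9 and 22.3 RPKM in VP and 21.2 and 18.3 RPKM in DMSO (VP minus Y27 -0.91 ± 0.09, adjusted p = 6.85e-08). Rhoa was at 38.3 and 38.0 RPKM in Y27 and 24.4 and 26.5 RPKM in VP. The exchange factor Arhgef12 was at 20.0 and 21.1 RPKM in Y27 and 10.3 and 9.71 RPKM in VP. Of the kinases targeted by Y27, Rock2 was lower in Y27 (6.64 and 6.41 RPKM against 9.24 and 9.26 RPKM), and Rock1 differed by 0.22 ± 0.08, a call that was lost without VP replicate 1 (0.17), Y27 replicate 1 (0.21) or Y27 replicate 2 (0.23). Rnd1, which opposes RhoA, showed one of the largest differences of all, at 17.7 and 18.7 RPKM in VP, 0.678 and 0.803 RPKM in Y27 and 7.19 and 6.52 RPKM in DMSO (difference 3.46 ± 0.09). Arhgef2 (GEF-H1), which activates RhoA when released from microtubules, was also higher in VP, at 20.7 and 22.2 RPKM against 11.8 and 11.7 RPKM.

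In the other direction, the extracellular matrix and its assembly were lower in VP. Of 16 collagen chains tested, 14 were lower in VP. Col4a5, a basement membrane chain, was at 0.900 and 0.761 RPKM in VP, 9.73 and 10.3 RPKM in Y27 and 11.8 and 11.6 RPKM in DMSO (difference from Y27 -2.59 ± 0.09, adjusted p = 3.70e-13). Col11a1 was at 5.19 and 4.34 RPKM in VP and 30.3 and 28.8 RPKM in Y27. Col12a1 was at 5.88 and 4.39 RPKM in VP and 31.6 and 30.8 RPKM in Y27. The list's median was -1.35 in VP and 0.03 in Y27 against DMSO. The summed fibroblast markers, of which 3 are collagen chains, fell alongside, and their part in the result was not tested. The exceptions among the chains were Col27a1 (1.74 and 1.64 RPKM in VP, 0.413 and 0.309 RPKM in Y27), which Y27 lowered from 1.71 and 1.85 RPKM, and Col18a1. The enzymes and chaperones that fold and modify collagen were lower in VP in 25 of 26 and higher in none. Fkbp14, a prolyl isomerase of the endoplasmic reticulum, was at 1.45 and 1.32 RPKM in VP, 13.7 and 15.1 RPKM in Y27 and 20.4 and 19.2 RPKM in DMSO (difference from Y27 -2.69 ± 0.08), so that Y27 was also below DMSO by 0.43. The prolyl hydroxylase P3h1 was at 4.18 and 3.57 RPKM in VP and 15.3 and 16.3 RPKM in Y27. Of 22 other matrix genes 20 were lower in VP. Against DMSO, VP was below in 20 of these 22 and Y27 above in 9 and below in 4. Omd (osteomodulin) was at 2.07 and 1.57 RPKM in VP, 15.5 and 17.1 RPKM in Y27 and 29.2 and 29.3 RPKM in DMSO, so that Y27 was also below DMSO (-0.81, adjusted p = 2.57e-06), and Mfap2, a microfibril protein, at 1.54 and 1.31 RPKM against 15 and 14.8 RPKM.

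The genes of the endoplasmic reticulum that fold secreted proteins followed, with 24 of 29 lower in VP and 3 higher. Dnajc3, a cochaperone, was at 4.86 and 4.35 RPKM in VP and 16.8 and 17.6 RPKM in Y27, and Sel1l, of the degradation complex, at 3.22 and 3.05 RPKM against 11.3 and 12.3 RPKM. Xbp1, a transcription factor of the same response, was the other way by 0.36 ± 0.08 (28.2 and 29.8 RPKM against 22.0 and 22.9 RPKM), as was Ero1lb. The ATF4 and CHOP stress targets and the folding genes thus lay on opposite sides of the comparison. The ER stress response element, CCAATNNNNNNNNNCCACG, was found in 10 of 24 promoters of this list, against 0.164% of the tested genes, and Dnajc3 holds it at chr14:118937802-118937870 (+).
Dnajc3: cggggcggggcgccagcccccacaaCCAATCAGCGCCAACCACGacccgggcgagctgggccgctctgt

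Receptors and ligands of the fibroblast surface were lower in VP as well. Of 19 receptor tyrosine kinases 15 were lower and 1 higher. Pdgfrb, a receptor for platelet-derived growth factor and a fibroblast marker, was at 2.91 and 2.51 RPKM in VP and 17.8 and 19.1 RPKM in Y27 (difference -2.39 ± 0.08, adjusted p = 6.35e-13), and Epha4 was at 0.832 and 0.720 RPKM against 7.80 and 7.97 RPKM. Met, the receptor for hepatocyte growth factor, was the exception, with a call (0.36) that was lost without VP replicate 1 (0.23), and was below DMSO (13.5 and 12.6 RPKM) in both, at 4.68 and 3.74 RPKM in VP and 2.98 and 3.13 RPKM in Y27. Of 17 Wnt genes tested 13 were lower, with the receptor Fzd2 at 2.73 and 1.94 RPKM against 18 and 19.8 RPKM and the ligand Wnt5a at 0.883 and 0.829 RPKM against 5.35 and 7.90 RPKM. Of 25 genes of the TGF-beta family 15 were lower and 5 higher. Tgfb3 was at 4.33 and 4.17 RPKM in VP and 23.3 and 21.9 RPKM in Y27, and the inhibitory Smad6 at 1.1 and 0.902 RPKM in VP, 5.56 and 6.64 RPKM in Y27 and 15.8 and 14.3 RPKM in DMSO. Integrin and focal adhesion genes were lower in VP in 14 of 21 and higher in 2 (76.2% called, beside 70.4% of all genes). The largest difference was that of Itga11, a collagen receptor subunit (1.65 and 1.56 RPKM against 7.92 and 8.16 RPKM). Bcar1 and Fermt2, adaptors of adhesion sites, were higher in VP.

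**Figure D4:**
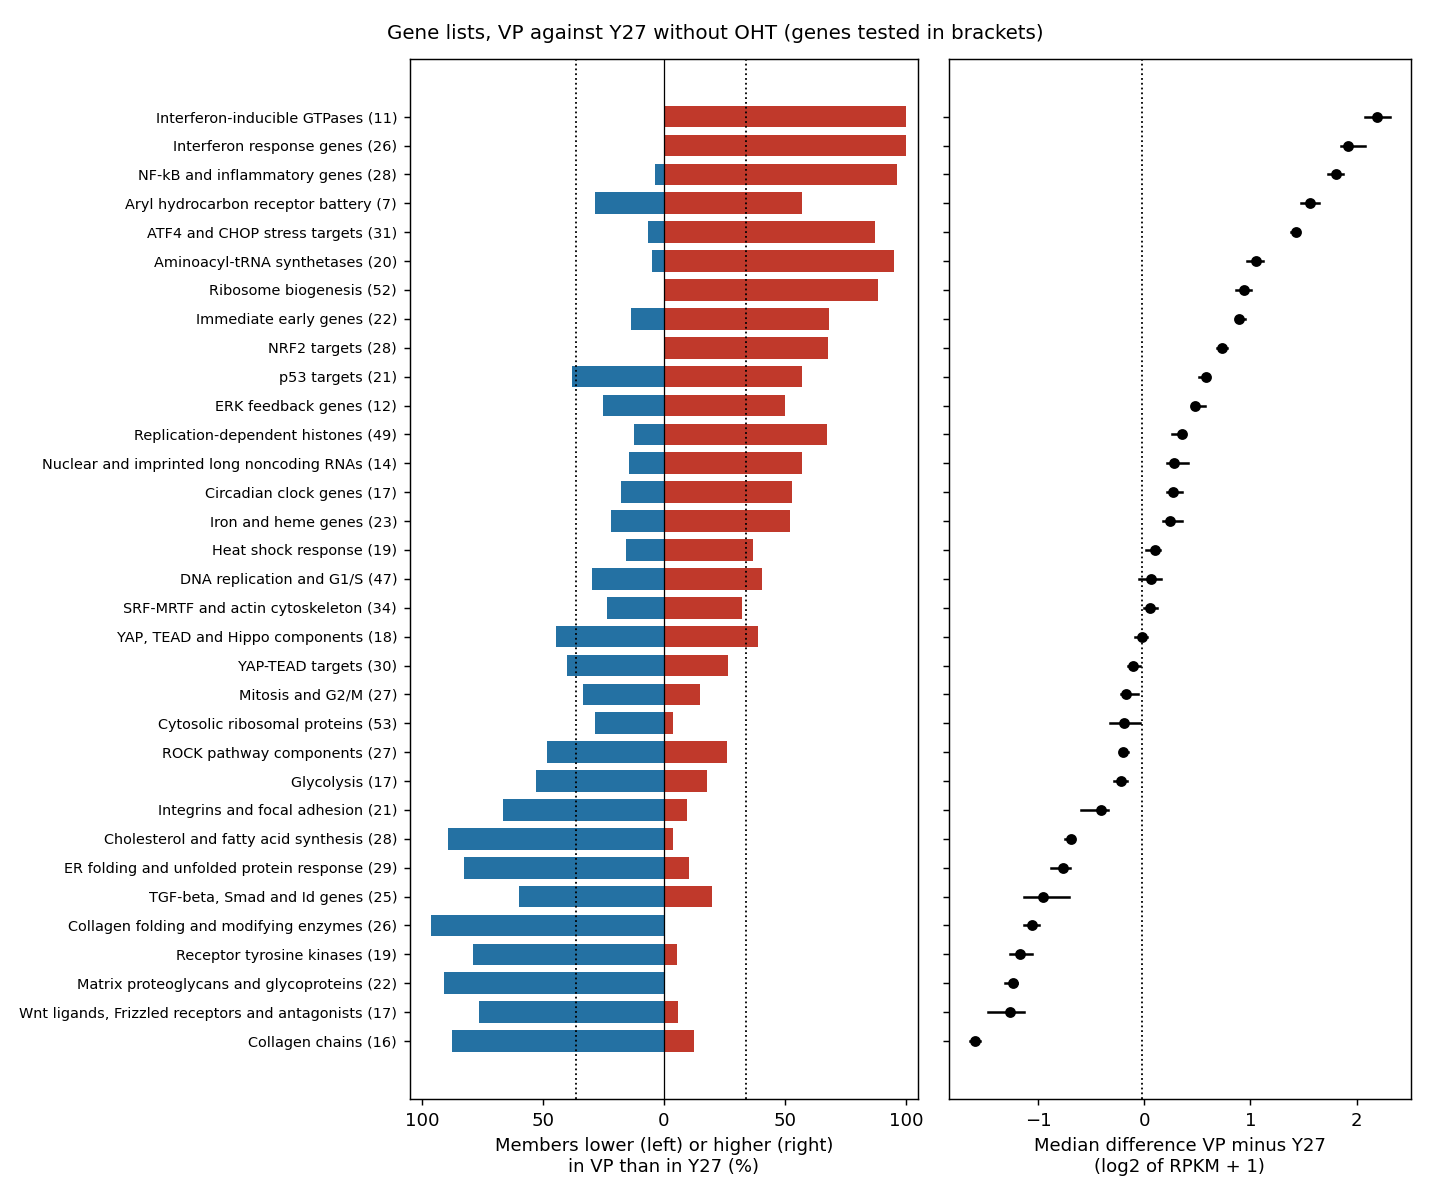
Left, percentage of tested genes of each of 33 lists that were lower (blue, to the left) or higher (red, to the right) in VP than in Y27, with dotted lines at the 36.4% and 34.0% of all genes. Right, median difference of each list (point, log2 of RPKM + 1) with the range over the 4 pairs of 1 VP and 1 Y27 library (line) and the median of all genes (dotted). The medians run from -1.59 for collagen chains to 2.19 for interferon-inducible GTPases, of which 10 of 11 passed the minimum through VP alone and had to differ.

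Of 28 genes of sterol and fatty acid synthesis 25 were lower in VP than in Y27, and their median was -0.41 in VP and 0.37 in Y27 against DMSO. Y27 was above DMSO in 20 of the 28 and VP below it in 17. Hsd17b7, of the late sterol pathway, was at 3.15 and 2.76 RPKM in VP, 9.89 and 11 RPKM in Y27 and 5.37 and 4.33 RPKM in DMSO (VP minus Y27 -1.53 ± 0.10, adjusted p = 7.61e-10). Dhcr7, the last enzyme of cholesterol synthesis, was at 1.63 and 1.43 RPKM in VP and 5.85 and 6.71 RPKM in Y27. Scd1, which desaturates fatty acids, was at 12.7 and 10.1 RPKM in VP and 31.1 and 31.4 RPKM in Y27. The exception was Acaca (acetyl-CoA carboxylase), at 9.84 and 9.61 RPKM in VP and 4.92 and 5.25 RPKM in Y27.

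The largest differences towards Y27 among all genes were a mixed group. Pcdh18, a protocadherin, was at 15.1 and 16.6 RPKM in Y27 and 1.07 and 0.570 RPKM in VP (difference -3.22 ± 0.11, adjusted p = 5.06e-13). Slc6a6, the taurine transporter, was at 29.2 and 29.1 RPKM in Y27 and 2.97 and 2.39 RPKM in VP, with DMSO between them at 14.6 and 13.4 RPKM. Bmf, a BH3-only protein that is held at the actomyosin cytoskeleton, was at 11.1 and 11.7 RPKM in Y27, 0.927 and 0.754 RPKM in VP and 3.41 and 3.59 RPKM in DMSO. Slc6a6, Bmf, Dlk2 and Gpr153 thus moved away from DMSO in both directions, by -2.03 and 1.0, -1.29 and 1.47, -1.38 and 1.39, and -1.80 and 1.05 for VP and Y27. Ppp1r3c, a glycogen-targeting subunit of protein phosphatase 1, was at 0.690 and 0.672 RPKM in VP, 12 and 12.7 RPKM in Y27 and 12.4 and 12.2 RPKM in DMSO, and Gprc5c at 0.375 and 0.344 RPKM against 8.92 and 10.3 RPKM. Txnip, which binds thioredoxin and restrains glucose uptake, was at 5.07 and 4.82 RPKM in VP and 39.0 and 37.9 RPKM in Y27. Olfml2b, Nrep and Mfap2 completed the group, with differences of -2.92, -2.74 and -2.72. Mir351 also ranked here (-3.17 ± 0.19), but on 5 and 1 reads in VP against 38 and 36 in Y27 over the precursor's gene, which does not measure the mature miRNA.

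Growth and cell cycle genes split by function. Ribosome biogenesis factors were higher in VP in 46 of 52 and lower in none, with a median difference of 0.94. Heatr1, a factor of the small subunit processome, was at 16.8 and 18 RPKM in VP, 3.25 and 3.28 RPKM in Y27 and 6.91 and 6.11 RPKM in DMSO (VP minus Y27 2.11 ± 0.09, adjusted p = 2.46e-12), and Noc3l was at 14.6 RPKM in each VP library and 3.24 and 3.57 RPKM in Y27. Nucleolin, Ncl, differed by 0.35 ± 0.08 (13.6 and 14.0 RPKM against 10.4 and 10.8 RPKM). Against DMSO, VP was above in 46 of the 52 and Y27 below in 26. The cytosolic ribosomal proteins, in contrast, were called in 32.1% (2 higher in VP and 15 lower of 53), beside 70.4% of all genes, and their reads may be shared with processed pseudogenes. Some are abundant, such as Rpl28 at 44.8 and 50.9 RPKM in VP and 62.4 and 56.5 RPKM in Y27. Its reads were nearly level, at 685 and 659 in VP and 677 and 682 in Y27. Rpl28, called lower in VP, thus differed in RPKM mainly through the larger library totals of VP. Rps24, 1 of the 2 called higher, had 2298 and 2404 reads in VP against 1370 and 1312 in Y27. Whether the levels of abundant ribosomal protein genes were compressed was not tested. The low share called does not show that their RNA levels were alike.

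DNA replication and G1/S genes were not shifted as a group, with 19 higher in VP and 14 lower of 47 and a median difference of 0.06. Their share called was 70.2%, beside 70.4% of all genes. Cdk6 was at 8.81 and 6.45 RPKM in VP and 1.54 RPKM in each Y27 library, whereas E2f1 was at 1.4 and 1.24 RPKM in VP and 3.45 and 3.92 RPKM in Y27. Cyclin D1, Ccnd1, was at 8.63 and 7.19 RPKM in VP, 14.4 and 16 RPKM in Y27 and 20.8 and 18 RPKM in DMSO. Of 27 mitotic genes 4 were higher in VP and 9 lower (48.1% called). In the list 4 genes reached the minimum in Y27 alone, so the filter fixed their direction. Cdc25b was at 0.745 and 0.635 RPKM in VP and 3.05 and 3.51 RPKM in Y27. Tpx2 went the other way, at 4.04 and 3.27 RPKM in VP and 1.26 and 1.24 RPKM in Y27. Among 21 p53 targets 12 were higher in VP and 8 lower. The cyclin-dependent kinase inhibitor Cdkn1a (p21) was at 9.75 and 8.62 RPKM in VP, 0.743 and 1.09 RPKM in Y27 and 0.674 and 0.574 RPKM in DMSO (VP minus Y27 2.41 ± 0.11, adjusted p = 6.77e-12), and the death receptor Fas at 11.4 and 11.9 RPKM against 1.57 and 1.76 RPKM. Perp and Sesn1 went the other way (-1.42 ± 0.09 and -1.36 ± 0.08). The replication-dependent histones, whose messages lack a poly(A) tail and were retained in these libraries, were higher in VP in 33 of 49 and lower in 6, led by Hist1h1a (14.2 and 12.8 RPKM against 4.23 and 3.74 RPKM), although near-identical copies can share reads.

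Smaller lists gave mixed counts. The share called was near the 70.4% of all genes for glycolysis (70.6%), clock genes (70.6%) and noncoding RNAs (71.4%). The heat shock genes were called in 52.6% of 19, with Hspa4l at 16.7 and 17.4 RPKM in VP and 7.87 and 8.35 RPKM in Y27. Hspa1b, which has a near-identical copy, and Bag3 were lower in VP, and both calls (-0.38 and -0.36) were lost without VP replicate 2 (-0.22 and -0.28). In glycolysis 9 of 17 genes were lower in VP, such as Tpi1 (22.3 and 24.1 RPKM against 40.7 and 40.3 RPKM), while hexokinase 2, Hk2, was at 20.3 and 21 RPKM in VP and 4.07 and 3.93 RPKM in Y27, and the regulator Pfkfb3 at 8.71 and 7.70 RPKM against 1.44 and 1.48 RPKM. Of 17 clock genes 9 were higher in VP, led by the repressor Ciart (13.5 and 14.2 RPKM against 1.31 and 1.32 RPKM), and 3 lower, among them Tef and Dbp. Of 14 nuclear and imprinted long noncoding RNAs 8 were higher in VP, with Neat1, the scaffold of paraspeckles, at 27.7 and 27.6 RPKM in VP and a wide spread of 14.6 and 9.40 RPKM in Y27. Tubb3, a neuronal tubulin and the highest neural marker, was at 7.6 and 6.44 RPKM in VP and 1.09 and 1.93 RPKM in Y27, and the other 6 neural markers were at 0.395 RPKM or less in these libraries.

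**Figure D5:**
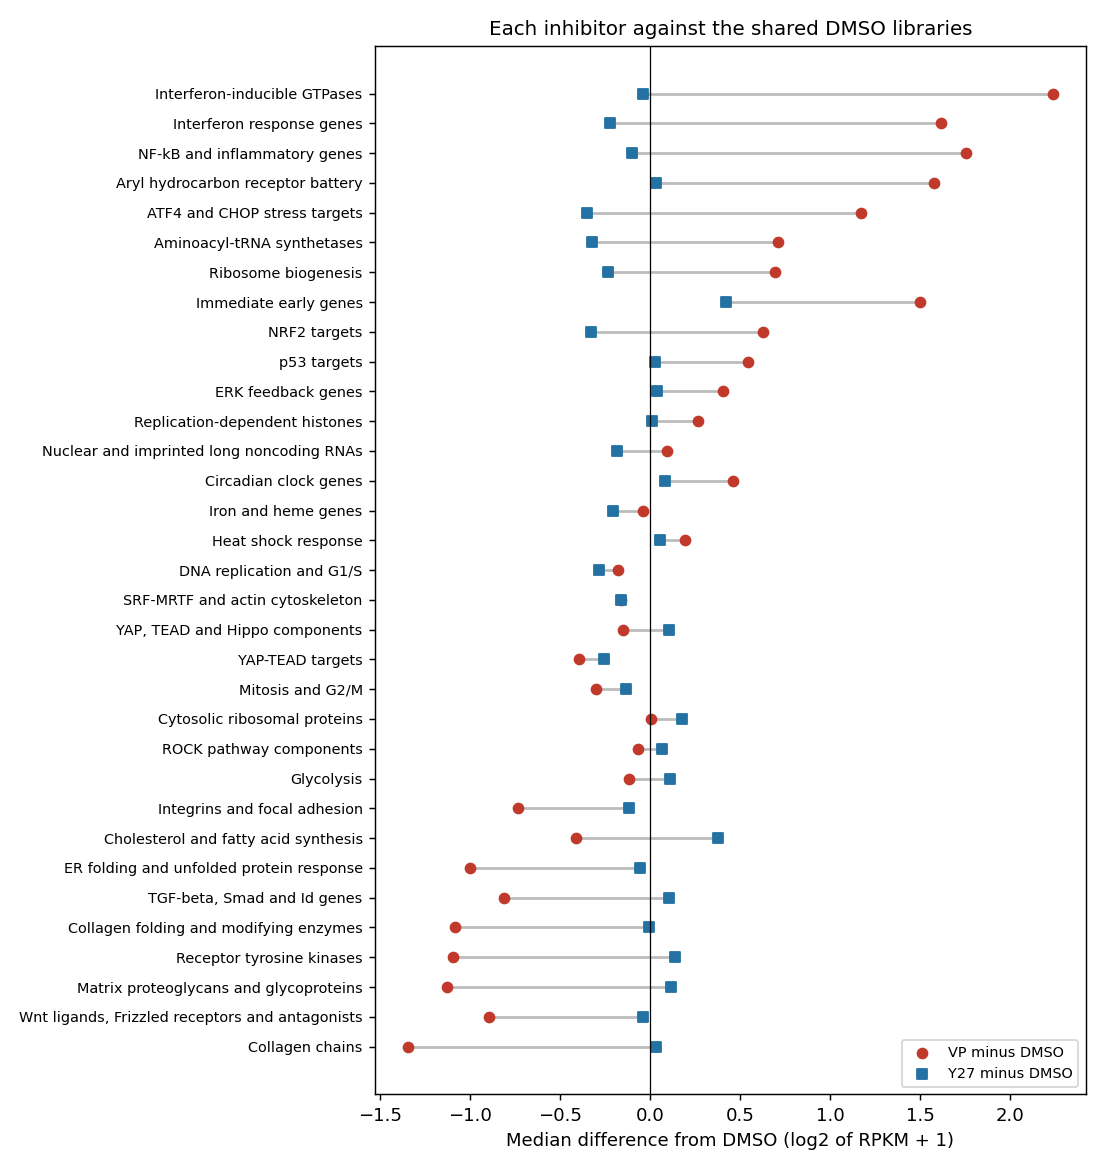
Median difference from DMSO (horizontal axis, log2 of RPKM + 1) of each of 33 gene lists in VP (red circles) and Y27 (blue squares), which share the 2 DMSO libraries. VP ranged from -1.35 for collagen chains to 2.24 for interferon-inducible GTPases (10 of 11 of which passed the minimum through VP alone), and Y27 from -0.35 for ATF4 and CHOP stress targets to 0.42 for immediate early genes.

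Over all genes the median was -0.07 for VP and -0.06 for Y27 relative to DMSO, and 7224 genes passed the threshold for VP against DMSO and 5236 for Y27 against DMSO in the same fit. The ATF4 and CHOP targets, the NRF2 targets, the synthetases and ribosome biogenesis had medians above 0 in VP and below 0 in Y27, while the heat shock genes were at 0.19 and 0.05 and the ER folding genes at -1.0 and -0.06. For the receptor kinases the Y27 median of 0.14 covered 7 genes above DMSO and 6 below, and VP was below DMSO in all 19. In genes of 1000 bases or more no library exceeded 1.80 reads per base, and whether the levels of abundant genes were compressed was not tested.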

How the data were processed

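Total RNA of 3T9MycER cells was sequenced in 12 libraries. Per the submitters' processing notes, the authors aligned reads to mm9 with TopHat2 2.0.8 and obtained counts for genes from featureCounts 1.4.5-p1, with SAMtools also named. The authors' own comparisons (fold changes and p-values) stand in further deposited tables and were not used. For duplicates, pairing and strand, the handling was not given in the sources used here. The deposited values are RPKM, made by the authors, and the decimal sign was missing from values of 1 or more (46.4% of 260052 cells), so that 224 of the 10898 tested genes had every value intact and the others rest on restored values. Library totals were found from the intact low values, and the sign was put back where reads came out whole, with annotated length and likeness between replicates and groups as weights. The spread between replicates is therefore not fully independent of the restoration, which could have removed real differences near 10-fold. Left out were 138 genes whose best place led the next by under 3 (natural log), 27 with repeated or date-like symbols and 5 without a solution.

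Genes were tested with limma 3.58.1 (R 4.3.3; trend) on log2(RPKM + 1), a scale that understates the fold changes of low genes, over 6 libraries with 3 residual degrees of freedom, two-sided, with Benjamini-Hochberg adjustment and a threshold of 0.05. Restoration and test were run on simulated data. The simulation supplied the true gene lengths and held no differences as large as a misplaced sign gives. It therefore cannot show how restoration fares with uncertain lengths or with such differences. The members and the 33 lists were chosen with earlier results of these data known, and list counts carry no test. Named genes were the 12 largest differences in each direction with separate libraries (clone symbols left out), a fixed set of 20, up to 4 called genes a list with up to 2 exceptions, and the highest marker of each other cell type. One gene that the rule named is not reported here. Asns, Txnrd1 and Gclm were added as motif holders after their values were seen. Replicates differed by more than sampling noise (chi-square per degree of freedom 1.82 to 3.19). Each of 16 other settings changed the pseudocount, minimum, scaling, libraries, replicate block or test (voom on recovered reads), or left out a library. Another was added later.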

Additional observations from a re-analysis of the deposited data

Results flagged for a closer look

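The VP-minus-Y27 difference without OHT was tested against the same difference with OHT, in a limma fit of all 12 libraries with an interaction term, and 766 of 10898 genes passed an adjusted p of 0.05. Of these, 498 had the higher value without OHT and 268 the lower. Values here are the difference without OHT minus that with OHT, on the log2(RPKM + 1) scale, for genes named by the rule that passed, 1 of which is not reported here. Among named ribosome biogenesis factors and synthetases, these stood further above Y27 in VP without OHT: Rrp1b by 1.31, Heatr1 by 1.28, Mphosph10 by 0.96, Noc3l by 0.64, Ncl by 0.54, Farsb by 0.60 and Wars by 0.55. The synthetases Cars (-0.08, adjusted p = 0.726), Lars (0.32, adjusted p = 0.111) and Qars (-0.07, adjusted p = 0.685) did not pass, and the lists were not tested as groups. The differences of Heatr1 were 2.11 without OHT and 0.83 with it. For Ncl they were 0.35 and -0.19, so the sign of the estimate turned. Further genes with the larger difference without OHT were Aen (1.18), Cdk6 (0.88), Gsta4 (0.76), Cth (0.72), Mthfd2 (0.71), Hk2 (0.69) and Acaca (0.33). Lower values without OHT were found for Tgfb3 (-0.70), Txnip (-0.59) and Nrep (-0.59), whose differences were below 0 in both settings and further from 0 without OHT, and for Hspa4l (-0.50) and Myc (-0.63), which stood above Y27 in both. Wwtr1 (-0.40) was at -0.15 without OHT and 0.25 with it.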

How the results depend on the processing

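Across 16 other settings the comparison gave 6641 to 8121 calls, of which 47.1% to 50.7% were higher in VP. The lowest was of 9559 genes (without genes of 20 RPKM or more) and the highest of 17928 (no minimum). The main fit called 7669 of 10898, so these counts are not shares of the same genes. Leaving out 1 library gave 6969 to 7540 calls, 3356 to 3648 higher in VP and 3544 to 3893 lower, and 47.1% to 50.7% higher. The genes with an interval within 1.5-fold numbered 4922 to 5154 without 1 library, 4043 with a pseudocount of 0.1 and 12031 of 17928 with no minimum, the last because more genes of low level were tested. The replicate block gave 7479 calls. Replicate 1 deviations correlated at 0.0627 (DMSO and VP), -0.0644 (DMSO and Y27) and -0.23 (VP and Y27). By the last value, VP replicate 1 deviated more like Y27 replicate 2 than like Y27 replicate 1. Whether libraries of different numbers shared a batch was not tested. Crossing the Y27 numbers in the block, chosen after seeing the data, gave 7968 calls. Of 195 genes named by the rule, 15 gained or lost a call in at least 1 setting (besides those named so in the report, Arnt, Hist1h2ai, Rmrp, Rpph1, Rpl15, Rpl28 and Wnt10b), and none of the 195 changed sign. List medians changed sign in 4 instances: the YAP, TEAD and Hippo components (0.0034 under quantile normalization, 0.1008 without genes of 20 RPKM or more and -0.0766 to 0.0297 when 1 library was left out) and the aryl hydrocarbon receptor battery (-0.3453 without genes of 20 RPKM or more). In the aryl hydrocarbon receptor battery that setting removed each gene called higher in VP, which fixed the sign of the remainder. For the YAP, TEAD and Hippo components the cause was not tested. In 77 further instances a median moved by over 1 SD of the library pairs, and in 447 it did not. With 2 libraries a group, small differences rest on the pooled spread.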
